A study of Mus musculus with 12 samples.

Results

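Hepatocyte RNA from mice that carried no tumour was compared between day 21 and day 4 after an injection of PBS, the control injection of the study. The comparison took every gene whose mean normalized read count over the 6 PBS libraries was at least 10, which kept 12193 of the 15910 genes in the table and left out 3717. The genes nearest that limit were AC122858.2, Trpm4 and 4930459C07Rik just under it, each with a mean of 9.99, and Ptger1 and Cyp2d41-ps, at 10, and Mterf1a, at 10.01, just inside it. The choice used only the mean over both days, so it did not depend on which day was higher.

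The mice were female Balb/c animals of 8 weeks at injection, and no genetic change is given in the labels. The PBS day 4 group held mice 4, 5 and 6, and the PBS day 21 group held mice 10a, 11a and 12b. Livers were perfused and dissociated, and poly A RNA of the hepatocytes was sequenced. The other 6 of the 12 libraries came from mice of the same strain, sex and age that had received orthotopic 4T1 cells, a mouse mammary carcinoma line, with 3 mice at each day. A normalized count here is a read count divided by a size factor of its library, with no correction for gene length, so levels are compared between mice and not between genes. Each mouse is a separate library, and the PBS groups share no mouse. Day after injection, age and occasion of harvest go together in these mice and cannot be told apart.

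Hepatocytes carry out different tasks along the liver lobule. Periportal hepatocytes, near the incoming blood, make urea and glucose, and pericentral hepatocytes, near the outgoing vein, respond to Wnt ligands from neighbouring endothelium. Many hepatocyte genes also follow the time of day through the circadian clock and follow fasting through glucocorticoids and glucagon. A perfused and dissociated preparation can hold some sinusoidal endothelial, Kupffer and stellate cells besides hepatocytes.

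Promoter sequences of the genes on which the account below turns are shown first, for the metallothionein pair because it had the smallest p in the comparison and for 3 clock genes because their levels differed widely between mice of 1 day. They were taken from RefSeq on GRCm38.p6, cover 250 bases before to 50 bases after the annotated start, and are written 5′ to 3′ on the strand of the gene. Of 39 genes looked up, 30 had an entry. Capitals in the metallothionein promoters mark TGCACNC or TGCGCNC on either strand, the core of the metal response element, a motif that was looked for after the values had been seen. In Mt2 the core was found at 223, 128 and 50 bases before the start and at 4 bases after it. In Mt1 it was found at 23 bases before and at 2 and 20 bases after the start. The core was present at least 1 time in 25.7% of 32817 promoters of this length. It was not particular to the metallothionein pair among the genes looked up. The Dbp promoter held 4 matches and the Per3 promoter 3, which are not marked in the Per3 sequence below. Capitals in the Ciart promoter mark the E-box CACGTG, at 116, 58 and 44 bases before the start, a motif held by 7.15% of promoters. Capitals in Per3 mark the D-box TTATGTAA, at 205 and 158 bases before the start and in 0.935% of promoters. Capitals in the second Arntl promoter mark the ROR element NTAGGTCA, at 29 bases after the start and in 2.59% of promoters. The windows are chr8:94172368-94172667 on the plus strand for Mt2, chr8:94178839-94179138 on the plus strand for Mt1, chr3:95882179-95882478 on the minus strand for Ciart, chr4:151044616-151044915 on the minus strand for Per3 and chr7:113207261-113207560 on the plus strand for Arntl. A match is a run of letters and not a binding site.
Mt2: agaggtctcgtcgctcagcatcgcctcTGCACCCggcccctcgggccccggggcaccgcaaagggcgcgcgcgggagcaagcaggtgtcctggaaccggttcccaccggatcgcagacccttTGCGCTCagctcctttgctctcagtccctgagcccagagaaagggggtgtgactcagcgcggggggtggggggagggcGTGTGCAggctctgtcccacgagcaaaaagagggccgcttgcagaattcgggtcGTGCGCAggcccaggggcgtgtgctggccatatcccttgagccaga
Mt1: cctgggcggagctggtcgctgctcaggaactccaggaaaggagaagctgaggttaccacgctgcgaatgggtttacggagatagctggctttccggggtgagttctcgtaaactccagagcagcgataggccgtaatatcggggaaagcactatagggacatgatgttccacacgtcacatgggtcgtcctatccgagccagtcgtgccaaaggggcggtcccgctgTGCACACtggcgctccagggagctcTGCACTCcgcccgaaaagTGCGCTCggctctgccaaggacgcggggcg
Ciart: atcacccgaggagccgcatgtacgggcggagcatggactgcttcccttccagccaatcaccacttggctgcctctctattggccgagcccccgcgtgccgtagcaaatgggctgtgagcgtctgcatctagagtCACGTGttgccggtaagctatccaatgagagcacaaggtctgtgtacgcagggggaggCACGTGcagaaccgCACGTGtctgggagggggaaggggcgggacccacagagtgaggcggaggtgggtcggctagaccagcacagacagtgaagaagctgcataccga
Per3: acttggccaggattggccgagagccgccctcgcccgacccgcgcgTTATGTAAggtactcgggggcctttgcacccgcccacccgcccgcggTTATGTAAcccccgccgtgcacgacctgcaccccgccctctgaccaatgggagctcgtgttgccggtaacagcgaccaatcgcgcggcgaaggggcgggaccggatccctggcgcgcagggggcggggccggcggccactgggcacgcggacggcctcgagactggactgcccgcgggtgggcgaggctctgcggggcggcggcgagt
Arntl: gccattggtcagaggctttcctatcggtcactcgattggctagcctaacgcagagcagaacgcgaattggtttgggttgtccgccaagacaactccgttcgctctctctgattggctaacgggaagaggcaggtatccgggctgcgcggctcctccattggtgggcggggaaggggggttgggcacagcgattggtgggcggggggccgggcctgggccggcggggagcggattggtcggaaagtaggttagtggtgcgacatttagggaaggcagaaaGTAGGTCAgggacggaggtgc

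No gene passed the test between day 21 and day 4 in PBS mice. Limma called 0 of 12193 genes higher and 0 lower at an adjusted p of 0.05, which is 0% of the genes in each direction, and the smallest adjusted p was 0.553, for Mt2. At an unadjusted p of 0.05, limma gave 672 genes, or 5.51%, of which 433 (3.55%) were higher and 239 (1.96%) lower at day 21. EdgeR's quasi-likelihood test on the recovered reads called 0 genes as well, 0% in each direction, with 694 genes (5.69%) at an unadjusted p of 0.05. DESeq2 called 3 genes higher (0.0305%) and 13 lower (0.132%) of the 9829 genes to which it gave an adjusted p, with 739 of all genes at an unadjusted p of 0.05 (6.06%). The PBS day 21 values lay above all PBS day 4 values for 643 genes (5.27%) and below all of them for 547 genes (4.49%), 1190 in all (9.76%). The log2 fold change was positive for 5820 genes (47.7%). The absolute log2 fold change had a median of 0.16, a 90th percentile of 0.63 and a 99th percentile of 1.36. It reached 1 for 411 genes, and in 194 of these the days did not overlap. Limma called 9 genes lower without PBS day 4 mouse 6 (Arrdc2, Lpin1, Fam107a, Dnmbp, Mt2, Foxo1, Tcim, Setdb2 and Phf11c) and 1 gene lower without PBS day 21 mouse 10a (Sult5a1). It called 0 genes without any 1 of the other 4 mice.

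The libraries of a day did not stand together. Recovered depth was 14110532 to 19634259 reads at day 4 and 16175648 to 21809166 at day 21 with 9.52% to 13.9% of the reads on albumin and 6.03% to 8.42% on mitochondrially encoded genes. The first principal component held 44.2% of the variance and placed PBS day 4 mice 4, 5 and 6 at -48.4, -23 and 14.1 and PBS day 21 mice 10a, 11a and 12b at 5.57, 35 and 16.8. Day 4 mouse 6 therefore lay among the day 21 mice, and its highest correlation was with day 21 mouse 12b (r = 0.984). The correlation across genes was 0.968 to 0.97 between day 4 mice, 0.973 to 0.984 between day 21 mice and 0.952 to 0.984 between days. The median SD of a gene on the log2 scale was 0.30 at day 4 and 0.18 at day 21. All 6 hepatocyte markers were detected in every mouse, and their level is given below with the markers of other cells.

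The metallothionein genes had the smallest p among the genes that were lower at day 21. Mt2 and Mt1 encode small cysteine-rich proteins that bind zinc and copper and are induced by metals, glucocorticoids and stress. Mt2 (ENSMUSG00000031762, chr8:94172664-94173568 in the GENCODE M21 annotation of GRCm38) had normalized counts of 1293, 2735 and 1156 in PBS day 4 mice 4, 5 and 6 and of 289.4, 213 and 153.5 in PBS day 21 mice 10a, 11a and 12b. Its lowest day 4 mouse lay well above its highest day 21 mouse. The means were 1728 ± 875 at day 4 and 218.6 ± 68.1 at day 21 (SD, n = 3 mice each). The log2 fold change was -2.91 (SE 0.36, 95% interval -3.74 to -2.08), with a limma adjusted p of 0.553 and a DESeq2 adjusted p of 9.1e-14. Mt1 (ENSMUSG00000031765, chr8:94179082-94180327) had 4619, 11310 and 6596 at day 4 and 2707, 2055 and 1583 at day 21, again without overlap. Its log2 fold change was -1.76 (SE 0.33), with a limma adjusted p of 0.856 and a DESeq2 adjusted p of 8.89e-05. The genes have related sequences, so reads could be split between them, but both were lower in all 3 day 21 mice.

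The 24 genes with the smallest p in each direction, taken from genes that averaged 50 or more and did not overlap between days, are described through the next paragraphs by what they do. Since the rule used this contrast, their values are a description. All had a limma adjusted p of 0.856 except Mt2, and 13 of the 16 DESeq2 calls were among them.

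**Figure D1:**
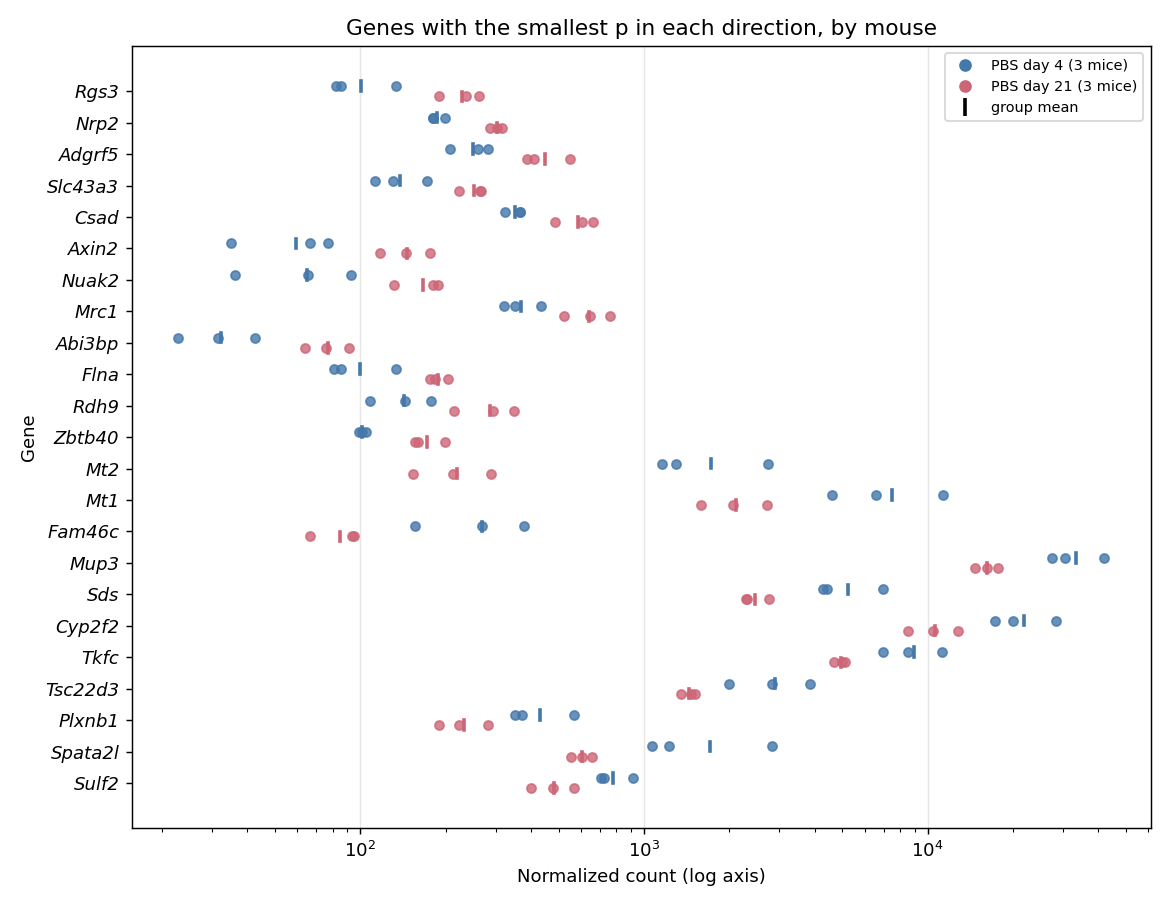
Normalized counts on a log axis of 23 of the genes with the smallest p, 12 higher and 11 lower at day 21, with 1 point per PBS mouse (blue, day 4; red, day 21) and a bar at the mean of 3 mice. No gene shown overlapped between the days, which the choice of genes fixed, and Mt2 showed the widest gap, with 1156 or more at day 4 and 289.4 or less at day 21.

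Periportal genes had lower values at day 21 in most cases. Of 20 periportal genes, 18 had a negative log2 fold change, and the days did not overlap for 6 lower genes and 0 higher genes, against 4.49% and 5.27% of all genes. The median of the list was -0.46 on the log2 scale, beside -0.01 over all genes tested, 6 genes had an unadjusted limma p under 0.05, all lower (against 1.96% of all genes), and limma called 0. Sds, serine dehydratase, which turns serine into pyruvate, had 6977, 4427 and 4261 at day 4 and 2770, 2283 and 2313 at day 21. Cyp2f2, a periportal cytochrome P450, had 28410, 17300 and 20000 at day 4 and 10470, 12850 and 8531 at day 21. Every day 21 mouse lay under every day 4 mouse for both genes. The log2 fold changes were -1.06 (SE 0.22) for Sds and -1.03 (SE 0.24) for Cyp2f2, and DESeq2 called both, with adjusted p of 0.00587 and 0.0228. Slc7a2, a carrier of arginine and other cationic amino acids, had 17150, 11600 and 10430 at day 4 and 9522, 7205 and 6011 at day 21 (log2 fold change -0.78). Ass1 and Arg1, both enzymes of the urea cycle, had log2 fold changes of -0.38 and -0.43. Their days did not overlap either.

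Pericentral genes leaned the other way. Of 20 pericentral genes, 16 had a positive log2 fold change with a median of 0.23, 4 had an unadjusted limma p under 0.05, all higher (against 3.55% of all genes), and limma called 0. The days did not overlap for 2 of the 20, both higher (10%, against 5.27% of all genes). Axin2 (ENSMUSG00000000142), a negative regulator and target of Wnt signalling, had 34.88, 66.51 and 76.71 at day 4 and 117.7, 145 and 176.2 at day 21. All day 21 mice lay above all day 4 mice. Its log2 fold change was 1.34 (SE 0.31, 95% interval 0.65 to 2.04), and the DESeq2 adjusted p was 0.0472. Lgr5, a receptor that strengthens Wnt signalling, had 110, 102.6 and 85.23 at day 4 and 174.4, 116.3 and 219.8 at day 21. Tbx3, a transcription factor of pericentral hepatocytes, had 151.6, 335.9 and 289.8 at day 4 and 310.3, 531.8 and 504.9 at day 21, so its days overlapped. The abundant pericentral gene Glul, glutamine synthetase, ran against the list, with 8728, 9851 and 4299 at day 4 and 7107, 2924 and 7610 at day 21 and a log2 fold change of -0.41 (SE 0.44). The pericentral values thus differed between members, and Glul varied widely within each day. The periportal median was -0.71 without PBS day 4 mouse 5 and between that and -0.37 without any other single mouse. The pericentral median was 0.05 without PBS day 4 mouse 6, 0.11 without PBS day 4 mouse 4 and 0.16 without either PBS day 21 mouse 10a or 12b, and 0.37 and 0.35 without day 4 mouse 5 and day 21 mouse 11a.

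Genes of sugar and amino acid use were mostly lower at day 21. Among 24 genes of gluconeogenesis, glycolysis and glycogen, 17 had a negative log2 fold change, the days did not overlap for 7 lower (29.2%, against 4.49% of all genes) and 1 higher (4.17%, against 5.27%), and the median was -0.37. Without PBS day 4 mouse 4 that median was -0.23. Pklr, the liver pyruvate kinase, had 6527, 8119 and 4959 at day 4 and 3506, 3935 and 4201 at day 21. Fbp1, a gluconeogenic phosphatase, had 28730, 26710 and 24440 at day 4 and 20800, 15450 and 16570 at day 21. Enzymes of both directions of the pathway therefore had lower values at day 21. Tkfc, which phosphorylates dihydroxyacetone and glyceraldehyde in fructose use, had 8535, 11240 and 6982 at day 4 and 4663, 5119 and 5011 at day 21, and DESeq2 gave it an adjusted p of 0.0472. Of 34 genes of the urea cycle and amino acid breakdown, 27 had a negative log2 fold change, 5 were lower without overlap (14.7%, against 4.49% of all genes) and 0 higher (against 5.27%), and the median was -0.28. Without PBS day 4 mouse 4 that median was -0.12. Got1, an aspartate aminotransferase, had 11230, 6927 and 6334 at day 4 and 4157, 5769 and 3951 at day 21. Limma called 0 genes of either list.

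Genes that respond to fasting and glucocorticoids split the day 4 mice. Of 26 such genes, 22 had a negative log2 fold change and the median was -0.64, and the days did not overlap for 1 of them (3.85%, against 4.49% of all genes), which was lower. The median was -1.03 without PBS day 4 mouse 6 and -0.36 without PBS day 4 mouse 4. Ddit4, an inhibitor of mTORC1, had 1461, 2168 and 241 at day 4 and 41.84, 302 and 72.65 at day 21. Tat, tyrosine aminotransferase, a long-known glucocorticoid target, had 98500, 79780 and 36960 at day 4 and 33940, 37200 and 32110 at day 21. Lpin1, a phosphatidate phosphatase and coactivator, had 7075, 7561 and 666.4 at day 4 and 1512, 948.1 and 889.1 at day 21. In all 3 genes, day 4 mice 4 and 5 stood high, and day 4 mouse 6 lay within or below the day 21 mice. The same held for Foxo1, a transcription factor of the fasting liver, with 1584, 2153 and 458.7 at day 4 and 639.9, 477.9 and 536.7 at day 21. The log2 fold change of Lpin1 was -1.6 (SE 0.99, limma adjusted p = 0.894), and without day 4 mouse 6 it was -2.75 with a limma adjusted p of 0.0164. For Foxo1 the values were -1.08 (SE 0.56, limma adjusted p = 0.859) and, without day 4 mouse 6, -1.75 with a limma adjusted p of 0.0389. Lpin1 and Foxo1 are described because that omission called them. Their low values in day 4 mouse 6 followed from this choice and are not further instances of the split. The adjusted p without that mouse are a description.

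Tsc22d3 was the member of the list whose days did not overlap. It encodes GILZ, a glucocorticoid-induced leucine zipper protein, and had 3857, 2827 and 1993 at day 4 and 1349, 1463 and 1519 at day 21 (log2 fold change -0.95, SE 0.23, DESeq2 adjusted p = 0.0472). Igfbp1, a secreted binding protein of insulin-like growth factors that falls after feeding, had 15460, 12110 and 3684 at day 4 and 1488, 12390 and 3254 at day 21. Its days overlapped, with day 21 mouse 11a as high as the day 4 mice. Pck1, the gluconeogenic carboxykinase, had 105400, 89080 and 38760 at day 4 and 55340, 42670 and 40480 at day 21. Cyp4a14, a target of PPARA, went against the list with a log2 fold change of 1.05 (SE 0.75). Food access and the hour of harvest are not given in the labels, and their part in these values was not tested.

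Clock genes varied by mouse rather than by day. The clock is a loop in which Arntl (BMAL1) and Clock switch on the Per, Cry and Nr1d genes, which act back on them, and Dbp, Tef and Hlf carry the rhythm to other genes. Of 24 clock and clock output genes, 15 had a negative log2 fold change, the days did not overlap for 1, Tsc22d3, a lower gene that is also on the glucocorticoid list (4.17%, against 4.49% of all genes), and the median was -0.23. It was -0.56 and -0.36 without PBS day 4 mouse 6 and PBS day 21 mouse 10a, and -0.14, -0.13 and -0.16 without day 4 mouse 5, day 21 mouse 11a and day 21 mouse 12b. Arntl had 37.56, 9.02 and 48.82 at day 4 and 15.69, 257.9 and 98.99 at day 21. Day 21 mouse 11a was the highest of the 6, and day 21 mouse 10a was lower than all but day 4 mouse 5. The log2 fold change of Arntl was 1.5 with an SE of 1.1. Dbp, an activator that binds the D-box, had 1528, 3385 and 2392 at day 4 and 3163, 510.8 and 1617 at day 21. Per3, of the period family, had 1178, 1082 and 579.6 at day 4 and 1041, 144.4 and 432.3 at day 21. Ciart, a repressor of the loop, had 665.4, 850 and 165 at day 4 and 485.6, 49.05 and 92.63 at day 21. For these 3 genes day 21 mouse 10a lay within the range of the day 4 mice and mouse 11a was the lowest of all, the reverse of its place for Arntl.

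Among other clock genes, Tef and Per2 drew the same line between mice, and Nr1d1 and Cry1 did not. Tef had 3599, 4261 and 2514 at day 4 and 4245, 990.8 and 2114 at day 21. Per2 had 1115, 1231 and 382 at day 4 and 1064, 199 and 550.3 at day 21. Both were lowest in day 21 mouse 11a, and for both day 21 mouse 10a was close to day 4 mice 4 and 5. Nr1d1, which encodes REV-ERB alpha, a repressor of Arntl, had 285.8, 573.8 and 2116 at day 4 and 1183, 1560 and 2285 at day 21. Day 4 mouse 6 again lay with the day 21 mice. Cry1, a repressor, had 307.2, 260.4 and 91.43 at day 4 and 251.9, 187.1 and 156.2 at day 21 and a log2 fold change of 0.00, whose sign turned to -0.12 under edgeR. Cry2, its relative, had a log2 fold change of -0.44 (SE 0.21), and its days overlapped.

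**Figure D2:**
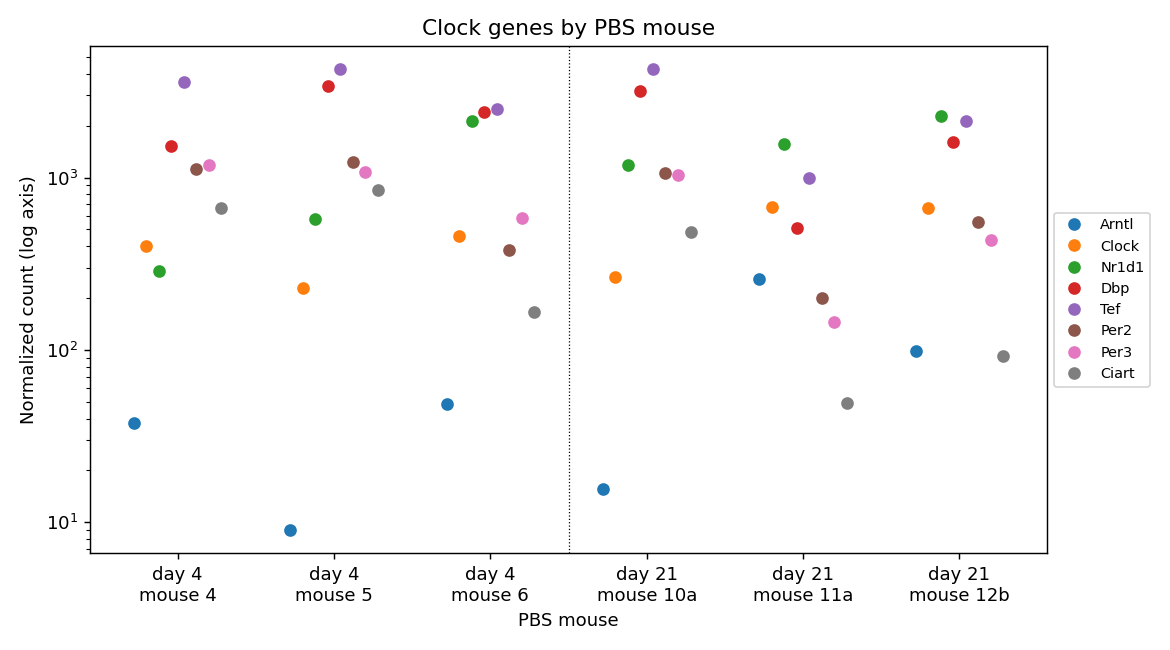
Normalized counts on a log axis of 8 clock genes in each of the 6 PBS mice, 1 colour per gene, with day 4 left and day 21 right of the dotted line. Arntl ran from 9.02 in day 4 mouse 5 to 257.9 in day 21 mouse 11a, and Per3, Dbp, Tef, Per2 and Ciart were all lowest in mouse 11a.

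Genes under growth hormone and the major urinary proteins mixed both directions. Of 34 genes, 25 had a negative log2 fold change, 3 were lower (8.82%, against 4.49% of all genes) and 2 higher (5.88%, against 5.27%) without overlap, and the median was -0.31. It was -0.53 without PBS day 4 mouse 6, and -0.16, -0.20 and -0.19 without day 4 mouse 4, day 4 mouse 5 and day 21 mouse 11a. Mup3, which encodes a major urinary protein that carries pheromones, had 41940, 27410 and 30560 at day 4 and 17710, 16190 and 14740 at day 21. Its log2 fold change was -1.02 (SE 0.20), and DESeq2 gave an adjusted p of 0.00201. The family has many near-identical copies that can share reads, so its level is uncertain. Cish, a feedback inhibitor induced by growth hormone through STAT5, had 124.8, 113.8 and 193.7 at day 4 and 330.4, 213 and 197.1 at day 21, with mouse 10a highest. Cux2, a transcription factor of the female liver, had 1118, 1642 and 1120 at day 4 and 983.3, 1038 and 693.8 at day 21. Cyp3a16, a P450 of young and female mice, had 2490, 3931 and 2046 at day 4 and 10010, 4281 and 5800 at day 21 (log2 fold change 1.21, SE 0.34). The day 21 mice lay above the day 4 mice, and mouse 10a was far above the rest. Of the 41 P450 genes of families 1 to 3, 17 had a positive and 24 a negative log2 fold change, with a median of -0.08 whose sign turned with equal library totals and without PBS day 4 mouse 4 or PBS day 21 mouse 11a.

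Markers of sinusoidal endothelial, Kupffer and stellate cells had higher values at day 21. All 14 sinusoidal endothelial, all 9 Kupffer and all 14 stellate markers tested had a positive log2 fold change, with medians of 0.86, 0.84 and 1. The days did not overlap for 9 (64.3%), 3 (33.3%) and 5 (35.7%) of them, all higher, against 5.27% of all genes. Limma called 0 of these markers. Cholangiocyte markers, with 2 tested, had a median of 0.01, 0 without overlap, and sums of 29.3 to 106.2 at day 4 and 38.36 to 56.06 at day 21. In a bulk sample, fewer cells of a type and less RNA per cell cannot be told apart.

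Of these lists the endothelial one had the most members without overlap. Tek, the angiopoietin receptor, had 55, 64.25 and 99.18 at day 4 and 124.7, 200.4 and 141.7 at day 21. Stab2, a scavenger receptor of sinusoids, had 456.1, 553.5 and 590.4 at day 4 and 785.4, 899 and 740.1 at day 21. Clec4g, a sinusoidal lectin, had 234.8, 453.2 and 455.6 at day 4 and 659, 834.6 and 587.6 at day 21. Day 4 mouse 4 was lowest and day 21 mouse 11a highest in all 3. Clec4f, a lectin of Kupffer cells, had 284.4, 498.3 and 681.1 at day 4 and 1278, 979.6 and 831.8 at day 21. Adgre1, which encodes the macrophage antigen F4/80, had 44.27, 48.47 and 74.39 at day 4 and 135.1, 98.1 and 93.54 at day 21. Here mouse 10a was highest. Hgf, a growth factor made by stellate cells, had 37.56, 93.56 and 83.69 at day 4 and 191.8, 152.1 and 117.2 at day 21. Dcn, the matrix proteoglycan decorin, had 391.7, 845.5 and 957 at day 4 and 1610, 1714 and 1064 at day 21. Of 24 extracellular matrix genes, 21 had a positive log2 fold change with a median of 0.67, and the days did not overlap for 3 higher genes (12.5%, against 5.27% of all genes) and 1 lower (4.17%, against 4.49%).

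The summed counts of the lists moved with a single mouse as well as with the day. The endothelial markers summed to 2644 to 5075 at day 4 and 6050 to 8835 at day 21, the Kupffer markers to 1112 to 2911 and 3115 to 4944, and the stellate markers to 1442 to 4101 and 4104 to 6967. Day 4 mouse 4 was the lowest in each, and for stellate markers the days nearly touched, with 1 of 15 listed genes at 0 in that mouse. The hepatocyte markers summed to 2026000 to 3004000 at day 4, highest in mouse 4, and 1791000 to 2205000 at day 21. Of the 6 hepatocyte markers, 5 had a negative log2 fold change, and 0 were free of overlap (against 9.76% of all genes). Their values ran from -0.37 to 0.02 with a median of -0.24, which was -0.02 without day 4 mouse 4. Among them Hnf4a, a nuclear receptor that maintains hepatocyte expression, had 11200, 9519 and 9728 at day 4 and 10210, 8752 and 10810 at day 21 (log2 fold change -0.03, SE 0.17). Without mouse 4 the medians of the endothelial, Kupffer and stellate lists were 0.52, 0.40 and 0.59, and 9, 3 and 5 markers did not overlap, against 9.74% of all genes. The matrix median was 0.17 by the same omission, and 1.1 without PBS day 4 mouse 6.

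Markers of blood cells were low. Neutrophil markers summed to 42.6 to 100.6 at day 4 and 15.69 to 25.22 at day 21 over 9 genes, of which 1 to 5 were at 0 in a library and only Csf3r, a cytokine receptor, passed the mean of 10. Markers of T and NK cells summed to at most 29.51 over 6 genes, and none was tested. Erythroid markers summed to 215.4 to 225.4 at day 4 and 129 to 228.4 at day 21. B and plasma cell markers summed to 75.54 to 230.7 at day 4 and 185.3 to 250.2 at day 21. All 3 tested had a positive log2 fold change, and 1 was higher without overlap (33.3%, against 5.27% of all genes). Their median was 0.53 and ran from -0.06 to 1.21 with 1 mouse left out. Platelet sums were at most 44.14, and monocyte and dendritic sums at most 22.45.

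**Figure D3:**
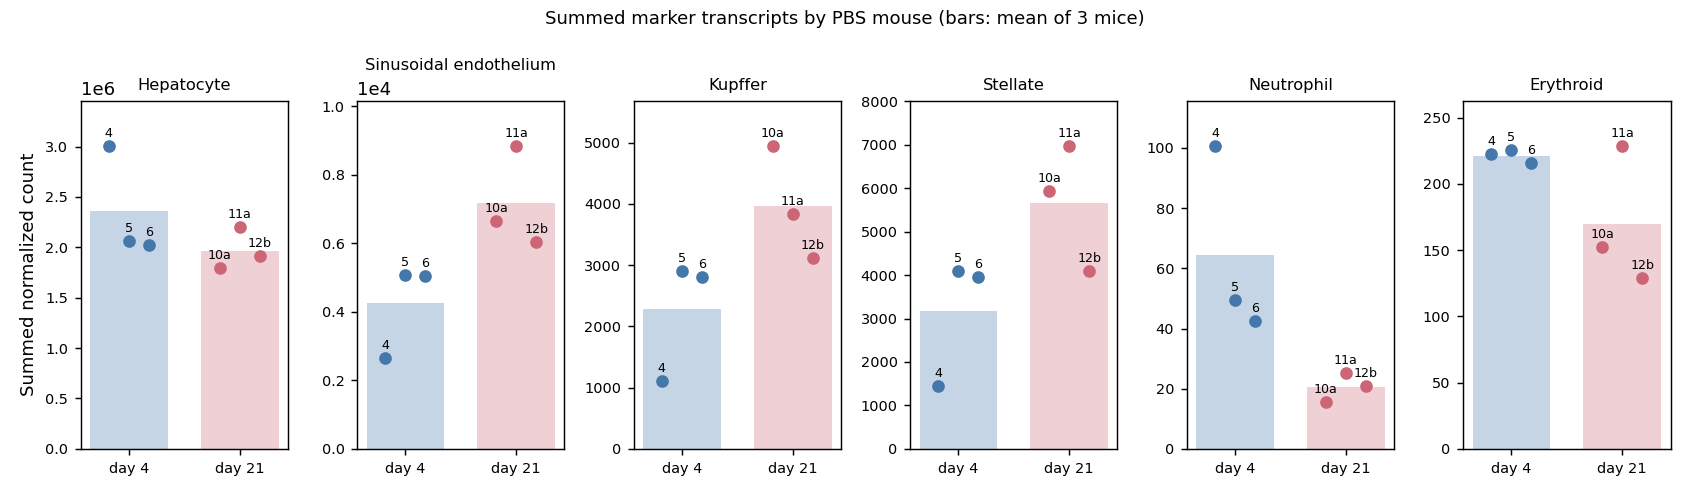
Summed normalized counts of the marker genes of 6 cell types in each PBS mouse (points, labelled by mouse) with the mean of 3 mice as bars that start at 0. Endothelial, Kupffer and stellate sums were higher in the day 21 mice, with day 4 mouse 4 lowest, and hepatocyte and neutrophil sums were highest in day 4 mouse 4.

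Several genes with the smallest p among the higher ones are known from vessel walls, macrophages and matrix. Nrp2, a coreceptor for semaphorins and vascular growth factors, had 179.8, 199.5 and 180.5 at day 4 and 315.6, 286.6 and 304.2 at day 21. Its log2 fold change was 0.69 (SE 0.15), with little spread within a day. Adgrf5, an adhesion receptor of endothelium, had 206.6, 259.3 and 281.3 at day 4 and 410.6, 547.3 and 387.8 at day 21. Mrc1, the mannose receptor of sinusoidal endothelium and macrophages, had 322, 351.7 and 433.9 at day 4 and 647.7, 756.1 and 522.2 at day 21. For both, mouse 11a was the highest and day 4 mouse 4 the lowest, as for the endothelial sum. Abi3bp, a matrix protein, and Flna, filamin A, which crosslinks actin, had log2 fold changes of 1.25 (SE 0.29) and 0.94 (SE 0.23). Slc43a3, a purine nucleobase carrier, had 0.88 (SE 0.20). The part of the other liver cells in these values was not tested.

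Others of the higher genes did not follow the order of the marker sums. Rgs3 (ENSMUSG00000059810), a regulator that shortens G protein signals, had 81.84, 85.67 and 134 at day 4 and 261.5, 189.2 and 236.1 at day 21. It had the smallest p of the higher genes, with a log2 fold change of 1.20 (SE 0.23), and DESeq2 called it with an adjusted p of 0.02. Csad, which makes the precursor of taurine, had 366.2, 366.4 and 323.1 at day 4 and 602.4, 486.3 and 660.2 at day 21. Nuak2, a kinase related to AMPK, had 36.22, 65.38 and 92.98 at day 4 and 188.3, 131.7 and 179.8 at day 21, and the DESeq2 adjusted p was 0.0472. In all 3 genes mouse 11a was the lowest of the day 21 mice. Rdh9, a retinol dehydrogenase, had a log2 fold change of 0.99 (SE 0.24) and the zinc finger gene Zbtb40 one of 0.74 (SE 0.18).

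The remaining lower genes were of mixed kinds. Fam46c, a noncanonical poly(A) polymerase, had 378.3, 268.3 and 155.8 at day 4 and 95.02, 93.2 and 66.29 at day 21. Its log2 fold change was -1.57 (SE 0.31), and the DESeq2 adjusted p was 0.00185. Spata2l had 1228, 2834 and 1071 at day 4 and 605, 655.9 and 551.2 at day 21, with day 4 mouse 5 far above the rest as for Mt2. Plxnb1, a semaphorin receptor, and Sulf2, which trims sulfate from heparan sulfate, had log2 fold changes of -0.87 (SE 0.22) and -0.70 (SE 0.18). Tcim, called by DESeq2 outside the 24, had 1309, 1206 and 313.8 at day 4 and 209.2, 213 and 172.5 at day 21. The predicted genes Gm33543 and Gm45774 were the other DESeq2 calls outside the 24, both lower.

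Genes of the respiratory chain and of plasma proteins shared a small negative offset. All 64 nuclear oxidative phosphorylation genes had a negative log2 fold change, between -0.42 and -0.05 with a median of -0.25, and the days did not overlap for 12, all lower (18.8%, against 4.49% of all genes). Ndufb10, a subunit of complex I, had 1804, 2482 and 1698 at day 4 and 1565, 1434 and 1446 at day 21. Day 4 mouse 5 stood above the rest for this gene. Ndufv1, another subunit of complex I, had 2794, 2505 and 2394 at day 4 and 2046, 2147 and 1863 at day 21, with all mice of a day closer to each other. Limma called 0 of the 64, and 3 had an unadjusted limma p under 0.05 (all lower, against 1.96% of all genes). Without PBS day 4 mouse 5 the median was -0.16. All 9 mitochondrially encoded genes tested were also negative, with a median of -0.39, and mt-Nd1 had 197100, 205500 and 139100 at day 4 and 104500, 143900 and 119100 at day 21. Of 46 apolipoproteins and plasma proteins, 44 were negative with a median of -0.22, and 6 were lower without overlap (13%, against 4.49%). With library totals set equal, the median of all genes was 0.18 and these medians were -0.06 for the nuclear respiratory genes and -0.03 for the plasma proteins. Ribosomal protein genes did not separate the days, with 0 of 79 free of overlap, against 9.76% of all genes. Their median was -0.08, which turned to 0.12 with equal totals and to 0.09 without PBS day 4 mouse 5.

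Sterol synthesis genes leaned higher at day 21. Of 25 genes, 15 had a positive log2 fold change, 5 had an unadjusted limma p under 0.05, all higher (against 3.55% of all genes), and 3 were higher without overlap (12%, against 5.27%). The median was 0.15, and 0.08 and 0.10 without PBS day 21 mouse 10a and PBS day 4 mouse 6. Cyp51, lanosterol demethylase, had 1890, 1441 and 1752 at day 4 and 3009, 2125 and 3181 at day 21. Nsdhl, which acts later on sterol intermediates, had 1150, 1128 and 1170 at day 4 and 1584, 1392 and 1714 at day 21. Mouse 11a was the lowest of the day 21 mice for both. Cyp7a1, the rate-limiting enzyme of bile acid synthesis, had 6411, 4510 and 7907 at day 4 and 5622, 1457 and 1907 at day 21, so mouse 10a kept a day 4 level. Its log2 fold change was -1.29 (SE 0.50).

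Stress and inflammatory genes had large but uneven values. Of 30 immediate-early and dissociation stress genes, 21 had a positive log2 fold change with a median of 0.32, and 2 were higher (6.67%, against 5.27% of all genes) and 1 lower (3.33%, against 4.49%) without overlap. The median was 0.06 without PBS day 4 mouse 4, 0.12 without PBS day 21 mouse 11a and 0.22 without PBS day 4 mouse 6. Fosb, an AP-1 subunit, had 1.34, 10.15 and 10.85 at day 4 and 20.05, 134.5 and 27.24 at day 21, with mouse 11a apart from the rest. Atf3, a stress-induced transcription factor, had 93.91, 304.4 and 258 at day 4 and 442, 514.3 and 320.6 at day 21. Nfkbia, which restrains NF-kB, had 975.3, 1281 and 642.4 at day 4 and 611.1, 587.9 and 481.3 at day 21. Gadd45g, a growth arrest gene, had 2695, 2780 and 1284 at day 4 and 428, 1432 and 693.8 at day 21. The direction thus differed from gene to gene within the list. Vldlr, a lipoprotein receptor induced in stress of the endoplasmic reticulum, had 128.8, 75.53 and 163.5 at day 4 and 190.9, 360.9 and 317.8 at day 21 (log2 fold change 1.25, SE 0.32). Herpud1 and Chac1, members of the same list, were lower. With 1 mouse left out, their log2 fold changes ran from -1.3 to -0.57 and from -1.41 to -0.64. Among 31 acute-phase genes, 21 had a negative log2 fold change with a median of -0.13 that turned to 0.06 with equal library totals, and Mt2 and Mt1 were among the 3 lower without overlap (9.68%, against 4.49% of all genes). Without PBS day 21 mouse 11a or PBS day 4 mouse 4 that median was -0.07 or -0.08. The members ran from -2.91 to 1.94. Saa1 had 175, 163 and 1048 recovered reads, not scaled for depth, at day 4 and 2290, 210 and 2321 at day 21. Saa2 had 78, 65 and 503 such reads at day 4 and 1333, 128 and 1825 at day 21. Both were high in day 21 mice 10a and 12b and low in mouse 11a.

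The other lists were mixed, and limma called 0 of their genes. Of 33 genes of fatty acid oxidation and ketogenesis, 0 were free of overlap, and of 29 hepatocyte transcription factors, 0 were as well (against 9.76% of all genes). Without PBS day 4 mouse 4, 4 of the 33 were higher (12.1%, against 9.74% of all genes) and 0 lower (against 9.41%). Of the 29, 3 were then higher (10.3%) and 2 lower (6.9%). Foxa2, a pioneer factor of the liver, had 207.9, 227.7 and 366.5 at day 4 and 557.9, 346.8 and 457.7 at day 21 (log2 fold change 0.78, SE 0.25), so day 4 mouse 6 again lay inside the day 21 range. Of 24 genes of feeding and lipogenesis, 17 had a negative log2 fold change with a median of -0.24. Without overlap, 2 were lower (8.33%, against 4.49% of all genes) and 1 higher (4.17%, against 5.27%). Of 8 postnatal and fetal liver genes tested, 6 had a positive log2 fold change with a median of 0.43, and 0 were free of overlap. Of 33 interferon and antigen presentation genes, 20 had a positive log2 fold change with a median of 0.03 that turned to -0.06 without PBS day 4 mouse 5 and to -0.04 without PBS day 21 mouse 11a. B2m, the light chain of class I molecules, was a lower member without overlap, with 29260, 37420 and 25820 at day 4 and 23030, 23430 and 19950 at day 21. Of 27 genes of the endoplasmic reticulum chaperones and the ATF4 arm, 3 were higher without overlap (11.1%, against 5.27%) and 0 lower (against 4.49%). At an unadjusted limma p under 0.05, 1 of the 27 was higher (against 3.55% of all genes) and 2 lower (against 1.96%). Of 21 heat shock and cytosolic chaperone genes, 1 was lower without overlap (4.76%, against 4.49%). That gene was Rbm3, a cold-induced RNA-binding protein, with 363.6, 399.1 and 316.9 at day 4 and 257.2, 260.7 and 183.4 at day 21. Of 26 cell cycle genes that passed the filter, 19 had a negative log2 fold change and 1 was lower without overlap (3.85%, against 4.49%).

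**Figure D4:**
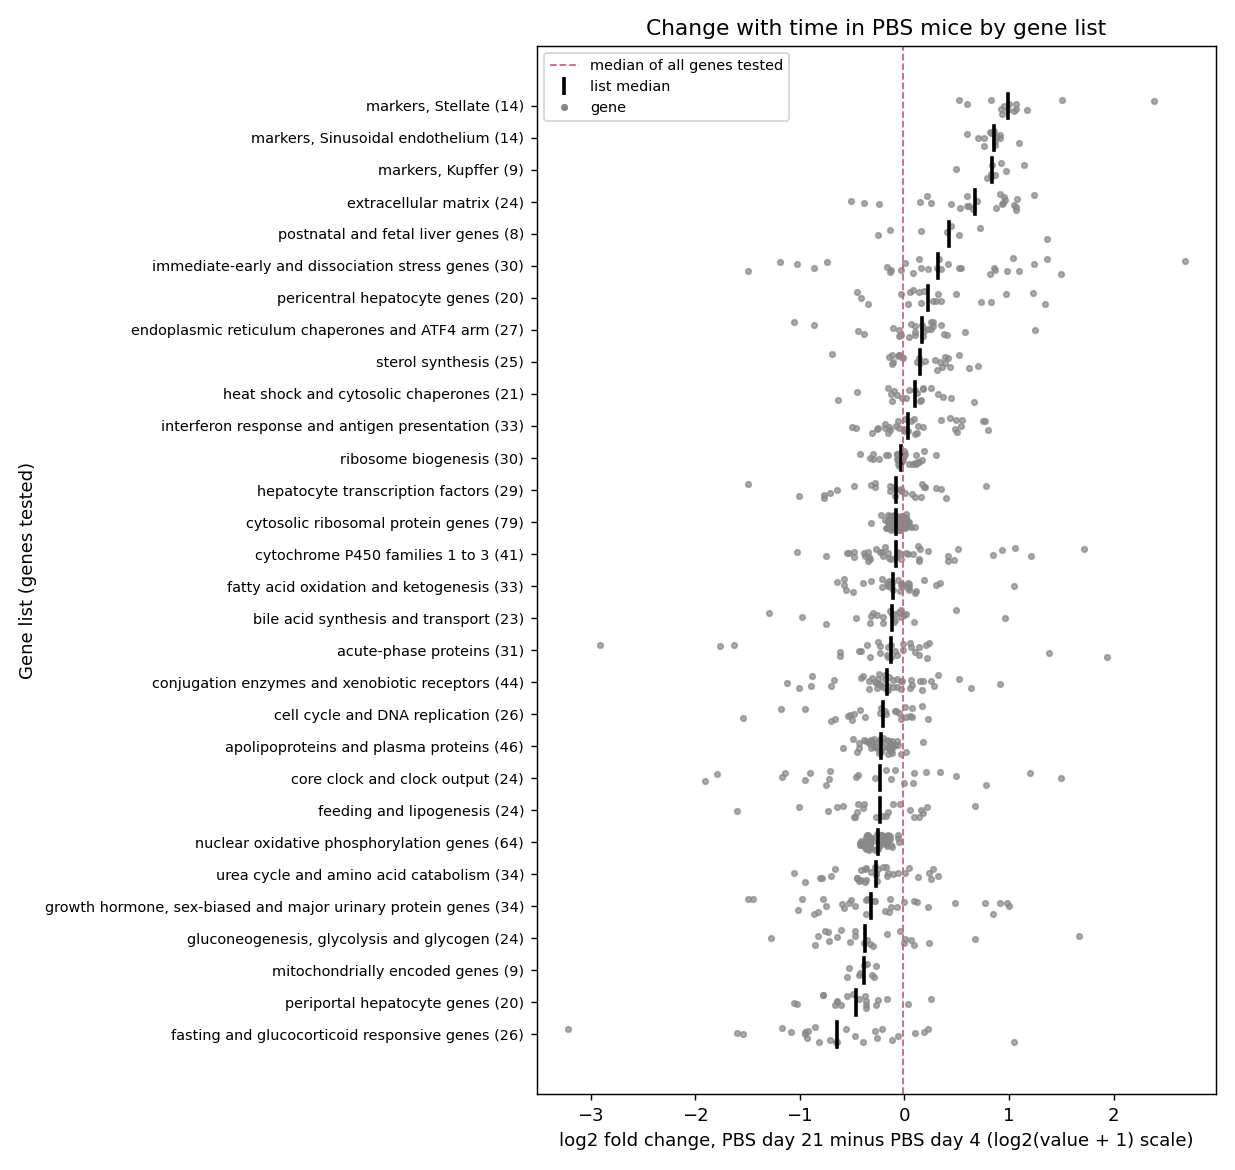
Log2 fold changes of PBS day 21 against PBS day 4 for each gene (points) of each list with at least 8 genes tested, with the list median (bar) and the median of all genes tested (dashed line, -0.01). The stellate, endothelial and Kupffer marker medians lay between 0.84 and 1, and the lowest medians among the lists drawn belonged to fasting (-0.64) and periportal (-0.46) genes.

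The same genes were then read in the mice with 4T1 cells, which share no library with the PBS mice. Between tumour day 21 and tumour day 4, limma on all 12 libraries called 874 of the 12193 genes higher (7.17%) and 493 lower (4.04%). Without tumour day 21 replicate 7 the calls were 329 in place of 1367, without tumour day 4 replicate 3 they were 381, and without tumour day 4 replicate 1 they were 584. The change with time had the same sign in both kinds of mice for 7497 genes (61.5%). The sign was also the same for 11 of the 12 higher and 9 of the 12 lower genes named above. Those were chosen among genes without overlap in PBS mice. Of all such genes, 521 of the 643 higher and 387 of the 547 lower had the same sign in tumour mice. The difference between the time changes was tested directly. Limma called it for 0 genes (0% in each direction), with 1390 genes at an unadjusted p of 0.05 and a smallest adjusted p of 0.0898. EdgeR also called 0, with 1491 at an unadjusted p of 0.05. Of the 24 genes, 8 had an unadjusted limma p under 0.05 for the difference, beside 1390 of all 12193 genes, and 0 were called. The PBS change is part of this difference, and the 24 were chosen by it. The choice therefore favoured a low p for the difference, and the 8 are a description.

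Of the 24 genes, Mt2 had the time changes that lay farthest apart between PBS and tumour mice. It was chosen by its PBS change, which is part of that distance. Mt2 had 2965, 1142 and 1076 in tumour day 4 mice and 2358, 5607 and 4126 in tumour day 21 mice, so the PBS day 21 values of 153.5 to 289.4 were the lowest of the 12 libraries. The time change of Mt2 was 1.30 in tumour mice and -2.91 in PBS mice on the log2 scale, with a difference of 4.21 and an adjusted limma p of 0.0898. Csad and Mup3 moved the same way in both. Csad rose in tumour mice by 2.12 on the log2 scale (limma adjusted p = 0.000819) beside 0.72 in PBS mice. Mup3 fell by 2.98 on the log2 scale in tumour mice (limma adjusted p = 0.005) beside -1.02 in PBS mice. Plxnb1 rose in tumour mice by 0.94 (limma adjusted p = 0.0337), against -0.87 in PBS mice, with an adjusted limma p of 0.112 for the difference. Flna rose in tumour mice by 3.97 (limma adjusted p = 0.00559), with 4125 in tumour day 21 replicate 7 and 841.4 and 838.1 in the other two. The PBS change of Flna was 0.94, from counts of 80.49 to 134 at day 4 and 176.2 to 203.2 at day 21.

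**Figure D5:**
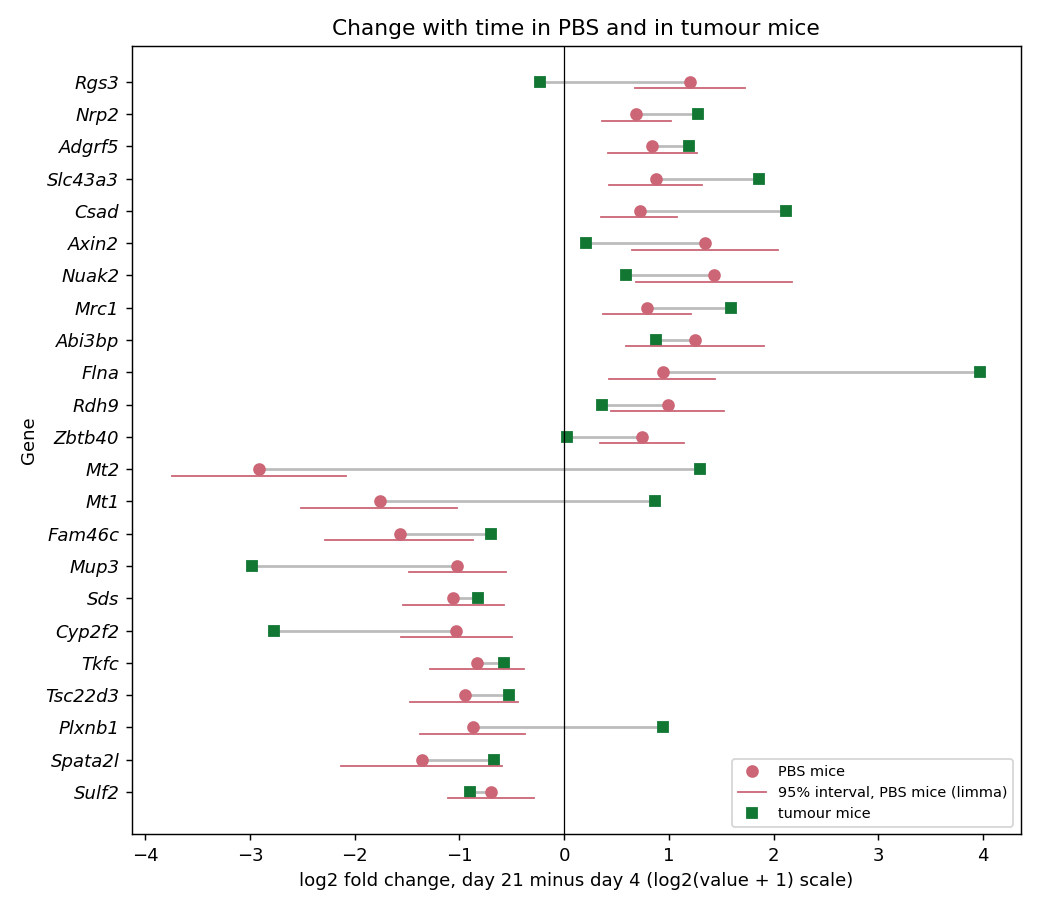
Log2 fold change of day 21 against day 4 for 23 of the named genes in PBS mice (circles, with the 95% interval from limma as a line) and in tumour mice (squares), on the log2(value + 1) scale. Mt2, Mt1, Plxnb1 and Rgs3 had opposite signs in the 2 kinds of mice, and Mup3, Cyp2f2, Csad and Flna were farther from 0 in tumour mice.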

How the data were processed

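Poly A RNA of dissociated hepatocytes was sequenced from 12 mice, and 1 table of normalized gene counts was deposited. Trimming used cutadapt, alignment STAR 2.4.2a on GRCm38, counting HTSeq and normalization DESeq2, per the submitters' processing notes. The annotation and the strand setting were not given in the sources used here, so overlapping and antisense genes cannot be told apart. The deposited values are a signal in the form of counts divided by a size factor of each library. Whole reads were recovered from the step of each library, with 100% of values no more than 0.1 from a whole read. The libraries held 9375095 to 21809166 such reads. Identifiers of 15897 of 15910 genes matched GENCODE M21, and 10 symbols were repeated.

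Genes with a mean of at least 10 over the 6 PBS libraries were taken to log2(value + 1), a scale that understates the change of low genes, and tested in those 6 libraries with limma 3.58.1 (trend and robust, R 4.3.3). P-values were two-sided and adjusted by the Benjamini-Hochberg method over all genes tested, and an adjusted p under 0.05 was a call. Tumour changes and their difference from PBS were fitted on all 12 libraries. P-values set the difference of group means against the spread between mice, with 3 mice per group. Limma pooled that spread over the PBS groups, or over all 4 groups for the tumour changes and the differences. The tumour day 21 libraries were known from earlier work to spread far more than the others. EdgeR 4.0.16 (quasi-likelihood) and DESeq2 1.42.0 were run on the recovered reads. DESeq2 gave no adjusted p to 2364 genes. The script was tested on simulated data.

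The named genes were the 12 with the smallest limma p in each direction among genes that averaged 50 or more and did not overlap between days, up to 4 members of each list by p, and the core clock genes. Predicted genes were left out of the first. Some genes that met the rule are not reported here. Lpin1, Foxo1, Tcim and members given for contrast were chosen after their values were seen. The members, lists and rules were chosen with earlier results of these data known.  Alternatives were other pseudocounts (0.5 and 5), filters (none and 50), scalings, tools and each mouse left out.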

Additional observations from a re-analysis of the deposited data

How the results depend on the processing

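The count of genes called in PBS mice stayed at 0 with all 12 libraries, both other pseudocounts, both other filters, TMM scaling, equal library totals, limma without trend and robust settings, and edgeR. DESeq2 called 16. With 1 mouse left out it ran from 0 to 9. The cause was not tested. For tumour mice the count of 1367 stayed within 1.5 times with a pseudocount of 5 and with edgeR, and ran from 329 to 1472 with 1 library left out. For the difference between tumour and PBS mice it stayed at 0 with a pseudocount of 5 and edgeR, and ran from 0 to 42 with 1 library left out, with the 42 reached without tumour day 21 replicate 9a.

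Over 129 genes, 2053 log2 fold changes were recomputed, of which 14 turned sign, in 8 genes. Cry1 had 0.00 as reported, 0 with a pseudocount of 5, -0.12 with edgeR, -0.13 with DESeq2 and -0.54 to 0.33 with 1 mouse left out. With equal library totals, Nr1d2 had 0.02, Rps13 had 0, Fau had 0.01 and Rpl10 had 0.04. With 1 mouse left out, Per1 ran from -0.58 to 0, Nfil3 from -0.35 to 0.55, Rpl38 from -0.52 to 0.04, Rps13 from -0.37 to 0.03 and Fau from -0.30 to 0.06. Equal library totals moved the median of all genes from -0.01 to 0.18 and turned positive the medians of bile acid synthesis (0.07), fatty acid oxidation (0.08), P450 enzymes (0.11), conjugation enzymes (0.03), acute-phase proteins (0.06), ribosomal proteins (0.12), ribosome biogenesis (0.16) and hepatocyte transcription factors (0.11). With 1 mouse left out, the highest median was 0.07 for P450 enzymes, 0.09 for ribosomal proteins and 0.02 for ribosome biogenesis, all negative as reported, and the lowest was -0.09 for heat shock genes (reported as 0.10) and -0.06 for interferon genes (0.03) and for B and plasma cell markers (0.53). Leaving out PBS day 4 replicate 4 for the list counts was chosen after seeing the data. No paired analysis was possible because the day 4 and day 21 mice carry no shared replicate number.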
